A study of Mus musculus with 22 samples.

Results

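Distal chromosome 15 was taken as all array probes whose midpoint lies on mouse chromosome 15 from 65 Mb, beyond the Myc gene, to the end of the chromosome. The choice gave 4434 of the 232626 probes with a position, spread over 38.6 Mb (chr15:65000962-103643458), out of 9142 probes on chromosome 15. The probes were picked by position because a gain of this chromosome was already known in these arrays, so the level of the region in lymphoma against no lymphoma describes the choice and was not tested. Genomic DNA of thymocytes from 22 mice deficient in Atm, a kinase activated by broken DNA, was labelled with Cy5 and set against Cy3-labelled DNA of wildtype thymocytes on an Agilent mouse genome CGH array, 1 array per mouse. Per the labels, 8 mice carried a lymphoma and 14 were macroscopically without findings, and the mice were untreated. All 22 mice share the Atm deficiency. Which portion of Atm was altered is not stated in the labels, nor are strain, age and sex, nor how many wildtype mice gave the reference. Since the labels give no array swapped dyes, genotype and dye effects cannot be told apart. A thymocyte sample can mix altered and unaltered cells, and a log2 ratio is an average over them.

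Array CGH compares the amount of DNA at each probe between a test and a reference genome, and a chromosome with an extra copy in all cells gives a ratio of 1.5, or 0.58 on the log2 scale. Trisomy of chromosome 15 is a recurrent change of mouse T-cell lymphomas, and Myc, which lies just before the region, is the gene usually discussed for it. The DNA beyond Myc travels with it on the same chromosome and holds genes of T-cell signalling, growth control, chromatin and cell division. Because every gene of a whole extra chromosome rises by the same ratio, steps inside the region show where copy number, or the response of the probes, is not level.

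The probes are designed oligonucleotides of 45 to 60 bases, 3649 of them 60 bases long, with a median spacing of 6529 bp in the region against 7850 bp over all autosomes. Their GC content was 37.2% on average (SD 2.91, 4434 probes), against 36.6% over autosomal probes. A gene name was carried by 68.8% of them, against 68.1% of autosomal probes. The labelled DNA was digested with AluI, which recognises AGCT, and RsaI, which recognises GTAC. Both sites read the same on both strands. The probes avoid these sites. A site occurred in 1 probe of the region (0.0226%), and in 0.0350% of autosomal probes. The sequences below, 5′ to 3′ as in the array files, are the first and the last probe of the region, the probe with a site, the pair of probes on either side of a step that 2 mice shared, and the middle probes of Ptk2, Rac2 and Ep300. The capitals mark the AluI site. No source used here gives the genome build of these coordinates, and whether a probe lies in an exon or an intron was not determined.
A_67_P08396053: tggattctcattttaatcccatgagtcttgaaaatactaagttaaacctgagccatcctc
A_67_P08490180: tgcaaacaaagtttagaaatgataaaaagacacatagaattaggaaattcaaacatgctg
A_53_P169890: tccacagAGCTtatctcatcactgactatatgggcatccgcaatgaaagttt
A_67_P08403575: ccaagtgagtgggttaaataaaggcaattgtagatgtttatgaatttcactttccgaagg
A_67_P03060596: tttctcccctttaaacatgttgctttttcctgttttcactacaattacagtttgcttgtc
A_67_P08414407: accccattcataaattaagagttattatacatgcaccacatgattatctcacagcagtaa
A_53_P177950: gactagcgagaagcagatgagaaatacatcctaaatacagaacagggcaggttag
A_67_P08435831: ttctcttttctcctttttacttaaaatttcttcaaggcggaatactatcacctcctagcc

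The first probe, A_67_P08396053 (chr15:65000962-65001021), carries the name Adcy8, an adenylyl cyclase gene, and its log2 ratio was 0.43 ± 0.095 (SD, n = 8) in lymphoma and 0.055 ± 0.19 (n = 14) without. The last probe, A_67_P08490180 (chr15:103643399-103643458), has no gene name and measured 0.50 ± 0.40 and -0.086 ± 0.46. The probe with an AluI site, A_53_P169890 in Tmem117 (chr15:94881137-94881188), measured 0.25 ± 0.57 and -0.16 ± 0.58. Single probes thus spread widely between mice, and every value given for the region, a bin or a gene averages over probes.

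The probe noise, the spread of differences between neighbouring probes, was 0.15 to 0.37 in the lymphoma arrays and 0.13 to 0.55 in the others. The 3 noisiest arrays were no-lymphoma mice 3, 4 and 9 with 0.55, 0.49 and 0.51. Over autosomal probes 8 of 231 pairs of arrays correlated below -0.3, the lowest at -0.48, and each of these pairs held no-lymphoma mouse 3, 4 or 9. Within the region 12 pairs did so, and the lowest, -0.65, joined lymphoma mouse 3 and no-lymphoma mouse 9. Among themselves these 3 arrays correlated at 0.82 to 0.87 over autosomal probes. Whether their dyes were swapped cannot be told from these values; the labels state the dyes, so the labelled direction was kept. The median log2 ratio of chromosome X was -1.05 for lymphoma mouse 1, -1.08 for lymphoma mouse 4 and 0.93 for no-lymphoma mouse 10, near the -1 of 1 copy against 2 and the 1 of the reverse. In no-lymphoma mouse 2 it was -0.41. The share of spots of the region not well above background was 0.0445% to 2.22% per array.

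The region was above the array's autosomal median in all 8 lymphoma arrays. Its mean log2 ratio was 0.59 in lymphoma mouse 1, 0.56 in mouse 2, 0.62 in mouse 3, 0.64 in mouse 4, 0.62 in mouse 5, 0.46 in mouse 6, 0.58 in mouse 7 and 0.20 in mouse 8. Mice 1 to 5 and mouse 7 lay close to the 0.58 of 3 copies in all cells, mouse 6 lay below them, and mouse 8 lay far below the other 7. The group mean was 0.53 ± 0.14 (SD, n = 8). All 39 windows of 1 Mb had a mean above 0 in every lymphoma array, and in mouse 8 29 of them reached 0.15. Between 79.6% and 99.7% of the probes were above 0 in these 8 arrays, with mouse 8 the lowest. The median over probes was close to the mean in 6 of these arrays, but was 0.54 against a mean of 0.46 in mouse 6 and 0.58 against 0.62 in mouse 3.

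**Figure D1:**
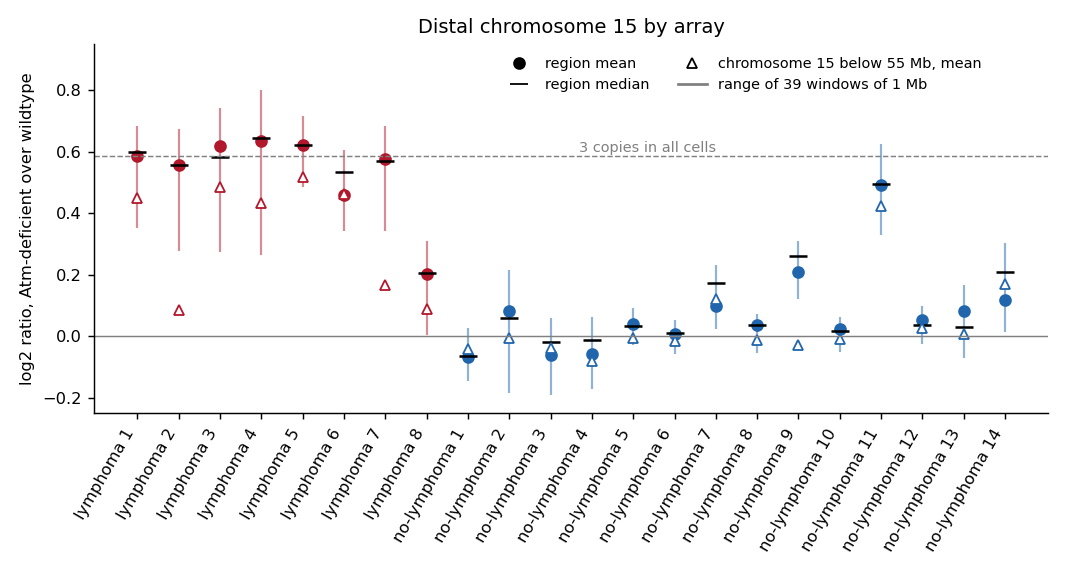
Mean (points) and median (bars) log2 ratio of distal chromosome 15 in each of the 22 arrays, with the range of its 39 windows of 1 Mb (lines) and the mean of chromosome 15 below 55 Mb (triangles). Lymphoma mice 1 to 5 and 7 sit between 0.56 and 0.64, near the dashed line of 3 copies in all cells, lymphoma mouse 8 is at 0.20, and no-lymphoma mouse 11, at 0.49, lies above lymphoma mouse 6.

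Without a lymphoma the lowest, median and highest region means were -0.067, 0.048 and 0.49, and the group mean was 0.076 ± 0.14 (SD, n = 14). No-lymphoma mouse 11 had a gain of 0.49, above lymphoma mice 6 and 8, and all 39 of its windows reached 0.15. No-lymphoma mouse 9 had a mean of 0.21 and a median of 0.26, with 33 of 39 windows at 0.15 or more and all 39 above 0. No-lymphoma mice 14 and 7 had means of 0.12 and 0.099, medians of 0.21 and 0.17, and all 39 windows above 0, of which 13 and 5 reached 0.15. The arrays of mice 7 and 14 were in the same scan batch and correlated at 0.82 over autosomal probes and 0.88 within the region. What they share was not tested, so their levels may not be separate observations. The medians of the other autosomes ran from -0.10 to 0.26 in no-lymphoma mouse 11 and from -0.14 to 0.083 in mouse 9. They ran from -0.20 to 0.016 in mouse 14 and from -0.045 to 0.054 in mouse 7. In lymphoma mouse 8 they ran from -0.12 to 0.15. The means of the other 10 no-lymphoma arrays lay between -0.067 and 0.083, and in these arrays at most 36 windows were above 0. The highest of them, no-lymphoma mouse 2 and mouse 13 at 0.083 and 0.082, had windows from -0.18 to 0.21 and from -0.069 to 0.17. The 2 groups therefore overlapped. In the order of the 22 levels the largest gap, 0.25, lay between lymphoma mouse 6 and no-lymphoma mouse 9, while lymphoma mouse 8 followed no-lymphoma mouse 9 by 0.0042, within the spread of the windows of either array (SD 0.077 in lymphoma mouse 8 and 0.055 in no-lymphoma mouse 9).

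The gain of no-lymphoma mouse 9 rests on 1 of the 3 noisy arrays, whose labelled direction keeps it a gain; with the sign of these 3 arrays turned it would be a loss of the same size. The group means with these 3 arrays turned or left out differed from those given by less than the spread between mice. Lymphoma exceeded no lymphoma by 0.46 over all arrays and by 0.39 with scan batch as a block. Within the scan batches that held both groups the difference was 0.53 (3 mice against 1), 0.56 (2 against 2), -0.032 (1 against 3) and 0.44 (2 against 1). The batch with the reversed difference held lymphoma mouse 8 beside no-lymphoma mice 7, 11 and 14, that is, 3 of the 4 no-lymphoma arrays with the highest levels. The part of the scan batch in these levels was not tested. The other 2 batches held 7 no-lymphoma arrays and no lymphoma array.

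A share of trisomic cells was converted from each region mean under 1 extra copy in the altered cells, 2 copies in all others, and no compression of the ratio. The conversion gave 101% in lymphoma mouse 1, 94.0% in mouse 2, 107% in mouse 3, 111% in mouse 4, 108% in mouse 5, 75.1% in mouse 6, 98.0% in mouse 7 and 30.4% in mouse 8. Values above 100% lie outside what 1 extra copy per cell can give. With the median over probes mouse 6 came to 89.9%. With 2 extra copies in place of 1, every share is halved, to 15.2% for mouse 8 and 37.5% for mouse 6. Among the no-lymphoma mice the share was 81.2% in mouse 11, 31.1% in mouse 9, 17.1% in mouse 14 and 14.2% in mouse 7, and the medians over probes gave 81.7%, 39.5%, 31.2% and 25.8%. The array does not tell a gain in some cells from a smaller response of the ratio, so these shares are conversions and not counts of cells.

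The end of chromosome 12 offered a second change in the same DNA. It was read from 44 probes named Rapgef5, a guanine nucleotide exchange factor gene, or Sp4, a transcription factor gene (chr12:115259100-116086240), whose loss in these arrays was also known beforehand. Its log2 ratio was -0.42 in lymphoma mouse 1, -0.92 in mouse 2, -0.79 in mouse 3, -1.02 in mouse 4, -1.01 in mouse 5, -0.83 in mouse 6, -0.87 in mouse 7 and -0.92 in mouse 8. Loss of 1 copy converts to 50.2%, 94.2%, 84.4%, 101%, 101%, 87.3%, 90.6% and 94.5% of cells in the same order. The share from the gain minus the share from the loss was 2.57 ± 32.6 percentage points (SD, n = 8), above 0 in 5 of 8 mice, with an exact two-sided sign-flip p = 0.781. A difference between the 2 shares was therefore not detectable over these mice. The mean hides mice with opposite differences: mouse 1 had 101% from the gain and 50.2% from the loss, whereas mouse 8 had 30.4% and 94.5%.

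Across the 8 lymphomas the 2 log2 levels gave Pearson's r = 0.086 (exact permutation p = 0.765) and Spearman's rho = -0.26 (exact permutation p = 0.536), and 0.765 was the Benjamini-Hochberg value of both. No scan batch held more than 3 lymphoma arrays, so this was not computed within batches. Without lymphoma mice 6 and 8, the 2 farthest from the median gain, r was -0.30 (exact permutation p = 0.642, n = 6) and rho -0.49 (exact permutation p = 0.356). With normexp background correction the coefficient was -0.85 (exact permutation p = 0.022, n = 8) and the shares differed by 22.4 points (exact sign-flip p = 0.0234). That correction moved lymphoma mouse 8 most, to a gain of 0.048 and a chromosome 12 end of -0.072. In the no-lymphoma arrays with a gained region the chromosome 12 end was low as well, at -0.76 in mouse 11, -0.28 in mouse 9, -0.20 in mouse 14 and -0.18 in mouse 7, or 81.6%, 34.8%, 25.6% and 24.0% of cells. These shares stood beside 81.2%, 31.1%, 17.1% and 14.2% from the gain. Next in level came no-lymphoma mice 2 and 13, with region means of 0.083 and 0.082. Their chromosome 12 ends were at -0.46 and 0.037. With the sign of mouse 9 turned, its gain would be a loss and its chromosome 12 loss a gain, each of the same size.

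**Figure D2:**
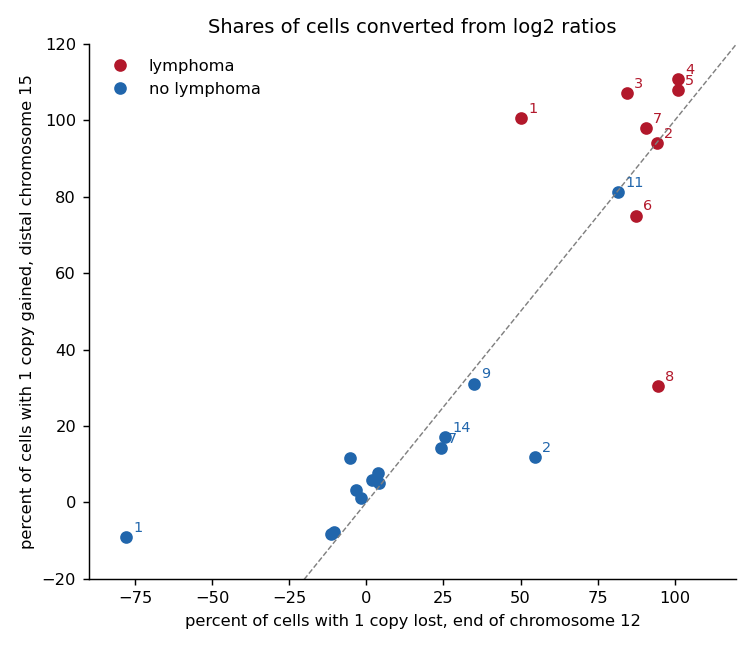
Share of cells converted from the gain of distal chromosome 15 (vertical axis, percent) against the share converted from the loss of the chromosome 12 end (horizontal axis, percent), with a number for each lymphoma mouse and for the no-lymphoma mice 1, 2, 7, 9, 11 and 14. Many points lie near the dashed line of equal shares, lymphoma mouse 1 (101% against 50.2%) lies above it, and lymphoma mouse 8 (30.4% against 94.5%) and no-lymphoma mouse 2 (11.8% against 54.8%) lie below it, while no-lymphoma mouse 1 (-9.11% against -78.0%) lies farthest above it.

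In 7 of 8 lymphoma arrays the gain was higher in the region than on the proximal part of the chromosome. Chromosome 15 below 55 Mb had a mean log2 ratio of 0.45, 0.084, 0.49, 0.43, 0.52, 0.46, 0.17 and 0.088 in lymphoma mice 1 to 8. The region exceeded it by 0.20 ± 0.16 (SD, n = 8), in 7 of 8 mice, with an exact two-sided sign-flip p = 0.0156. The region and this comparison were chosen with earlier results of these arrays known, so the p describes these 8 arrays and carries no further claim. In lymphoma mouse 6 the 2 parts were equal within 0.0019. Without a lymphoma the same difference was 0.038 ± 0.070 (SD, n = 14), and it ran from -0.051 to 0.24. The excess was largest in lymphoma mice 2 and 7, at 0.47 and 0.41. Their segmented profiles stepped up by 0.59 between chr15:40626332 and 40640807, near Lrp12 and Zfpm2, and by 0.53 between chr15:33234084 and 33240384, within the probes named Cpq. Without these 2 mice the excess was 0.12 ± 0.067 (SD, n = 6) and the exact sign-flip p was 0.0625. The stretch from 55 to 65 Mb, which holds Myc, was at 0.50 ± 0.14 (n = 8), and just outside the start of the region, from 64 to 65 Mb, the mean was 0.48 ± 0.14 against 0.41 ± 0.14 just inside, from 65 to 66 Mb.

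The gains without lymphoma also differed in where they started. No-lymphoma mouse 9 stepped up by 0.26 between chr15:48139859 and 48163478, near Kcnv1 and Trps1, so that the proximal mean was -0.027 against 0.21 in the region. No-lymphoma mouse 11 stepped up by 0.39 between chr15:7592006 and 7619937, near Egflam and Gdnf, and its proximal mean was 0.43 against 0.49. In no-lymphoma mice 7 and 14 no step of 0.25 or more came before the region, and the proximal means, 0.12 and 0.17, were above their region means of 0.099 and 0.12.

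Inside the region the lymphoma level was not flat. The 4 bins, each set against the region mean of the same array, gave -0.054 ± 0.034 from 65 to 75 Mb (822 probes, above 0 in 1 of 8 mice), 0.035 ± 0.030 from 75 to 85 Mb (1408 probes, 7 of 8), -0.038 ± 0.026 from 85 to 95 Mb (959 probes, 1 of 8) and 0.025 ± 0.0086 from 95 Mb to the end (1245 probes, 8 of 8; all SD, n = 8). The exact two-sided sign-flip p was 0.0156, 0.0234, 0.0234 and 0.0078, and 0.0234 for each bin after Benjamini-Hochberg adjustment over the 4 bins. Each bin is part of the region mean it is set against. Low bins therefore go with high bins in the same array, and the 4 results are not independent. The smallest p that 8 mice allow is 0.0078. The array that went the other way in the first 3 bins was lymphoma mouse 6, with 0.020, -0.036 and 0.019; in this array 7.67% of the probes lay more than 0.5 below its median, and their part in its bins was not tested. The same differences in the no-lymphoma arrays were -0.0063 ± 0.031, 0.0067 ± 0.021, -0.0090 ± 0.019 and 0.0036 ± 0.014 (SD, n = 14), of the same signs and smaller. After subtraction of these means the second bin no longer passed (adjusted exact sign-flip p = 0.0547). With normexp, which squeezed the signals of lymphoma mouse 8, the first and second bins, at -0.020 and 0.021, did not pass either.

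**Figure D3:**
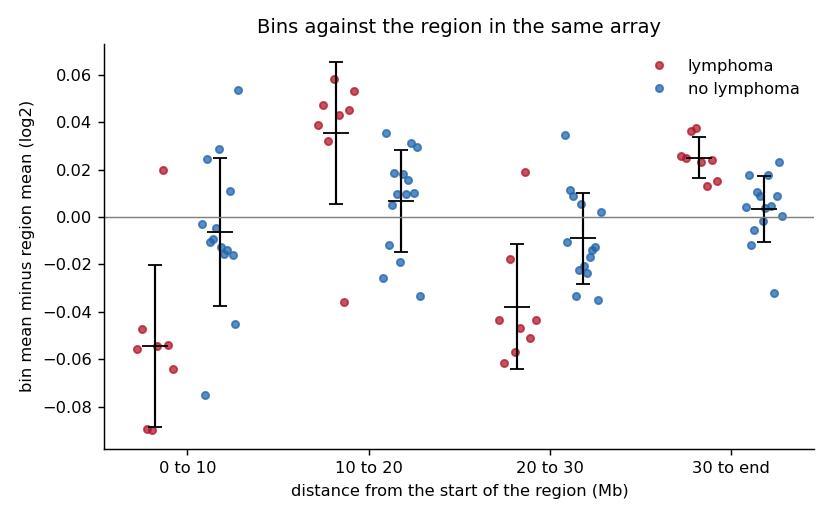
Mean log2 ratio of each bin minus the region mean of the same array, by distance from the start of the region in Mb, for 8 lymphoma and 14 no-lymphoma arrays (points), with the mean and SD of each group (bars). In lymphoma the bins starting at 0 and 20 Mb lie below 0 and the other 2 above it, except for 1 array in each of the first 3 bins.

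The lowest stretch of the profile lay from 69 to 72 Mb. It was singled out after the profiles were seen and got no test. It holds 175 probes, 58.3 per Mb against 115 per Mb over the region, and its named genes with at least 3 probes are Khdrbs3, AK139312 and Fam135b. Against the region mean of the same array it was at -0.19, -0.24, -0.31, -0.33, -0.12, -0.05, -0.19 and -0.18 in lymphoma mice 1 to 8, below 0 in 8 of 8, with a mean of -0.20 ± 0.092. In the no-lymphoma arrays the mean was -0.041 ± 0.082 (SD, n = 14), and 9 of 14 lay below 0. The 2 largest dips there were -0.23 in no-lymphoma mouse 2, whose region mean is only 0.083, and -0.15 in the gained array of mouse 11. In lymphoma mouse 8 the stretch stood at 0.022, the lowest of the 8. Over the 39 windows the mean deviations of the 2 groups correlated with r = 0.77, as a description of windows that share probes and arrays.

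**Figure D4:**
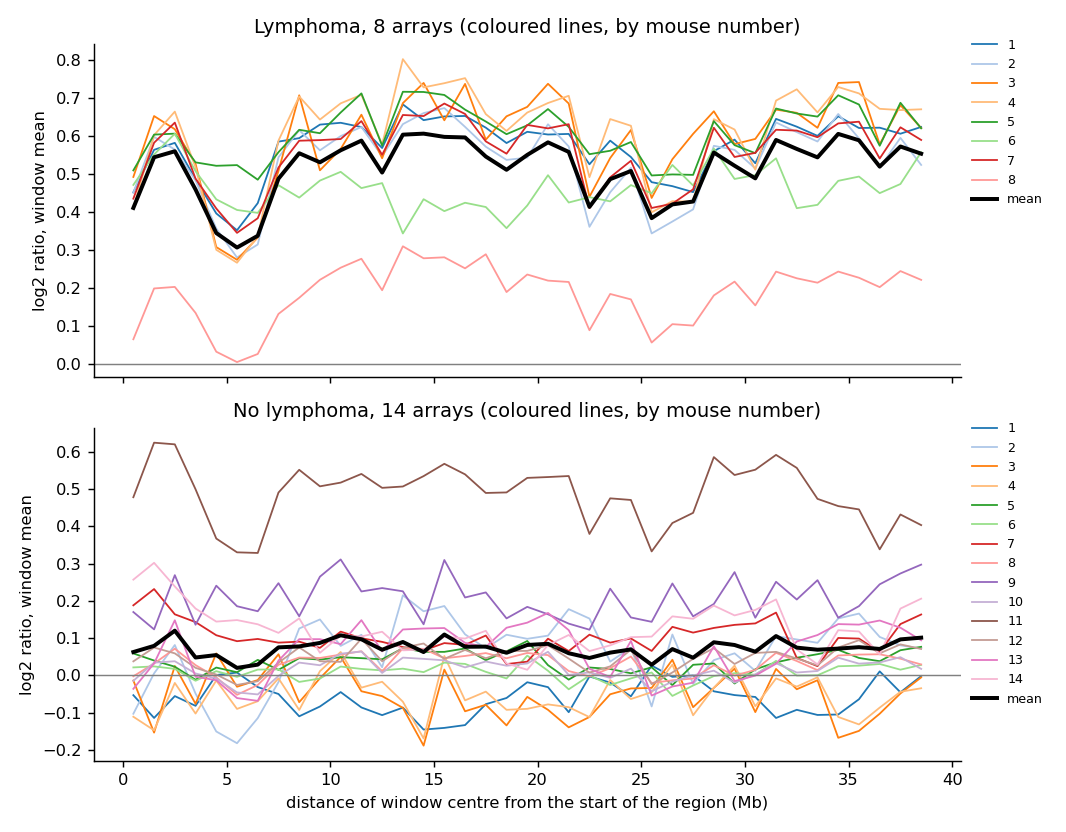
Mean log2 ratio of windows of 1 Mb by distance from the start of the region in Mb, for the 8 lymphoma (upper) and 14 no-lymphoma arrays (lower), with the group mean in black. The lymphoma profiles dip 4 to 7 Mb from the start, where the lowest window of lymphoma mouse 8 is at 0.0039, and no-lymphoma mouse 11 runs above the other no-lymphoma arrays.

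Segmentation found 16 steps of 0.25 or more inside the region, 5 in lymphoma mouse 2, 2 in mouse 3, 4 in mouse 4, 1 in mouse 6, and 1, 1 and 2 in no-lymphoma mice 2, 11 and 14. The other 15 arrays had none, among them lymphoma mice 1, 5, 7 and 8. With steps joined when they lay within 0.6 Mb, they fell at 9 places, and 5 of these places held steps of more than 1 mouse. Lymphoma mouse 3 and no-lymphoma mouse 11 stepped down between the same pair of probes, A_67_P08403575 and A_67_P03060596 (chr15:68416070 to 68421393, sequences above), from 0.60 to 0.32 and from 0.65 to 0.35. The nearest named genes are Zfat, a zinc finger gene with a role in T-cell survival, and Khdrbs3, which codes for an RNA-binding protein. The way back up lay near Kcnk9, a potassium channel gene, in lymphoma mouse 3 (from 0.32 to 0.63), mouse 4 (from 0.31 to 0.68) and mouse 2 (from 0.33 to 0.63), between chr15:72076609 and 72606842. These steps bound the low stretch described above. Smaller falls into it lay in lymphoma mice 1 (0.56 to 0.39), 2 (0.52 to 0.33), 4 (0.54 to 0.31) and 8 (0.18 to 0.028). Smaller rises out of it included 0.39 to 0.62 in lymphoma mouse 1, 0.028 to 0.25 in lymphoma mouse 8 and 0.35 to 0.53 in no-lymphoma mouse 11. Arrays with a low region mean rose there too, no-lymphoma mice 2 (-0.11 to 0.046), 8 (-0.024 to 0.051) and 13 (-0.031 to 0.094).

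Lymphoma mice 2 and 4 shared 2 more places with steps of 0.25 or more. Before Tg, the thyroglobulin gene, they stepped up from 0.47 to 0.72 and from 0.47 to 0.74, within chr15:66693842-66752166. Smaller rises lay near this place in lymphoma mice 5 (0.54 to 0.69) and 7 (0.46 to 0.65). No-lymphoma mice 11 (0.46 to 0.65) and 2 (-0.034 to 0.16) also rose near it. Near Gxylt1, whose enzyme adds xylose to Notch receptors, and Yaf2, a gene of Polycomb complexes, lymphoma mice 2 and 4 stepped up again. They went from 0.38 to 0.64 and from 0.42 to 0.68, within chr15:93302727-93364332. Smaller rises near it included 0.54 to 0.70 in lymphoma mouse 5, 0.43 to 0.62 in lymphoma mouse 7 and 0.43 to 0.55 in no-lymphoma mouse 11. Lymphoma mouse 6 stepped down from 0.59 to 0.32 in Elfn2 (chr15:78766702 to 78771421). After 61 probes it rose again to 0.51, a step below 0.25. That rise lay between chr15:79112439 and 79115088, the same pair of probes at which no-lymphoma mouse 14 rose. No-lymphoma mouse 14 fell from 0.13 to -0.17 in Cdc42ep1 and rose to 0.22 between H1f0, a linker histone gene, and Gcat, a stretch of 36 probes. Steps that reached 0.25 in 1 mouse were, in lymphoma mouse 4, near Apol9b and Myh9 (0.49 to 0.75), and in lymphoma mouse 2, near Tbc1d22a and Brd1 (0.63 to 0.36) and at Vdr (0.81 to 0.52). Smaller steps lay near some of these places in other mice. Near Apol9b lymphoma mouse 5 rose from 0.52 to 0.70 and lymphoma mouse 7 from 0.51 to 0.66. No-lymphoma mouse 2, with a region mean of 0.083, rose from -0.027 to 0.19 between the same probes as lymphoma mouse 5. Near Tbc1d22a the level went from 0.64 to 0.41 in lymphoma mouse 7 and from 0.70 to 0.47 in lymphoma mouse 4. Counted from 0.15 there were 69 steps in the region, among them 11 in lymphoma mouse 7 and 8 in lymphoma mouse 5. No-lymphoma mouse 2 stepped down from 0.16 to -0.11 near St3gal1. No segment of at least 20 probes fell to 0 or below in a lymphoma array, and the lowest, in lymphoma mouse 8, was at 0.028.

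The array named 662 genes in the region, and 315 of them had at least 3 probes. Their lymphoma means averaged 0.56 with an SD over genes of 0.077. Of the 315, 287 were above 0 in all 8 lymphoma arrays, against 2062 of the 12985 autosomal genes tested. At an adjusted p under 0.05 (limma, Benjamini-Hochberg over 12985 autosomal genes), 310 of 315 were higher in lymphoma, against 6.67% of all genes tested. This is the contrast behind the choice of the region. Nothing is read from that count or from the count of genes above 0 in all 8 lymphoma arrays. The 5 that did not pass were Cyb5r3, Mapk12, Mapk11, Endou and BC048564. The lowest lymphoma means were 0.33 for AK139312 and 0.35 for Fam135b, both in the stretch from 69 to 72 Mb, and the highest were 0.77 for Rac2 and 0.74 for Rarg.

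Of 15 listed T-cell and lymphocyte genes 13 were found and 8 had at least 3 probes. The median of their lymphoma means was 0.62, against 0.56 over the 315 genes of the region and 0.053 over all autosomal genes. Of these 8 genes, 8 were higher in lymphoma. For this list and those that follow, such counts repeat the contrast behind the choice of the region. In it 310 of the 315 genes passed, and nothing is read from the list counts. Rac2, a small GTPase of blood cells (chr15:78643997-78653177), had a lowest, median and highest level of 0.48, 0.77 and 1.09 in lymphoma and a mean of 0.77 ± 0.18 (n = 8), against -0.14 to 0.61 without, so the groups overlapped. Grap2, an adaptor of T-cell receptor signalling, was at 0.59 ± 0.20 and 0.10 ± 0.24 (n = 8 and 14). Nckap1l, which drives actin assembly in blood cells, was at 0.58 ± 0.15 and 0.15 ± 0.16. Itgb7, the integrin beta 7 gene, had a mean of 0.61 ± 0.34, with 7 of 8 lymphoma arrays above 0.

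Of 18 listed growth and cancer genes all were found, and 12 had at least 3 probes, with a median of 0.55 and 12 of 12 higher. Ptk2, the focal adhesion kinase gene, is covered by 35 probes (chr15:73290471-73475299), and its levels ran from 0.20 to 0.68 in lymphoma, with a mean of 0.55 ± 0.15, and from -0.17 to 0.60 without. Rarg, a retinoic acid receptor gene, was at 0.74 ± 0.26 from 4 probes, and Vdr, the vitamin D receptor gene, at 0.63 ± 0.20 from 7. Bik, which codes for a protein that promotes apoptosis, was the lowest of the 12, at 0.44 ± 0.29. Pdgfb, a growth factor gene with 3 probes, had a mean of 0.56 with 1 lymphoma array at -0.57.

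Of 15 listed chromatin and transcription genes 12 were found and 10 had at least 3 probes, with a median of 0.59 and 10 of 10 higher. Ep300, a histone acetyltransferase gene with 10 probes (chr15:81670966-81735806), had levels from 0.17 to 0.85 in lymphoma, with a mean of 0.59 ± 0.20, and from -0.23 to 0.62 without. Tnrc6b, a gene of microRNA silencing with 31 probes, was at 0.60 ± 0.15. Srebf2, a regulator of sterol synthesis, was at 0.64 ± 0.20 from 13 probes. Of 11 listed division and repair genes 8 were found and 5 had at least 3 probes, with a median of 0.54 and 5 of 5 higher. Espl1, the separase gene, was at 0.52 ± 0.27 and Senp1, a SUMO protease gene, at 0.54 ± 0.16. The 9 genes of the Hoxc cluster had 1 or 2 probes each and were not tested; their lymphoma means ran from 0.25 for Hoxc4 to 0.59 for Hoxc9. Of 21 keratin names 2 were found, with Krt7 at 0.45 ± 0.15 from 4 probes and Krt18 at 0.46 ± 0.16 from 1. The gene levels are not independent, since all genes of an array share its gain.

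The local level was then subtracted, so that each gene was read against the probes within 1 Mb around it and the regional gain dropped out. No gene of the region passed the test between lymphoma and no lymphoma in this reading (0 of 315 at an adjusted p under 0.05, limma), and 0.0154% of the 12984 genes tested did. At an unadjusted p under 0.05, 28 of the 315 passed, or 8.89%, against 10.4% of all genes. The smallest adjusted p was 0.197, for AK179277, whose deviation was 0.12 ± 0.031 (difference ± SE, limma) higher in lymphoma. Krt7 deviated by -0.18 ± 0.049 (adjusted p = 0.225, limma), Fmnl3, a formin gene, by 0.11 ± 0.031 (adjusted p = 0.229), and Yaf2 by 0.18 ± 0.059 (adjusted p = 0.28). Irak4, a kinase gene of innate signalling, and Tg differed by 0.17 and 0.11. Trabd, BC085284, M10109 and Tmem117 gave 0.17, -0.13, 0.075 and -0.064. None of these 10 genes passed the adjusted threshold. With normexp, which squeezed the signals of some arrays, the sign turned for Trabd (-0.070) and Fmnl3 (-0.013).

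Against 0, over all 22 arrays, no gene of the region combined an adjusted p under 0.05 with a mean deviation beyond 0.25 (0 of 315, limma; 83 at an unadjusted p under 0.05 and any size), against 0.0385% of all genes. At any size 54 of the 315 passed, or 17.1%, against 20.9% of all genes, and the largest deviation of any of the 315 was 0.18. Since every array was set against wildtype DNA, the spread of that reference is not in this test. Tef, a transcription factor gene (chr15:81887260-81910951), stood 0.12 ± 0.018 (SE) above its surroundings, in 20 of 22 arrays (adjusted p = 8.6e-05, limma). Ift27, a gene of transport in cilia (chr15:78242398-78255548), stood at -0.16 ± 0.025 (adjusted p = 0.000126, limma), above 0 in 2 of 22. Nptxr was at -0.15, Ppp1r16a at 0.13, AK079821 at -0.10, Nfam1 and AK179277 at 0.098 and 0.10, AK147562 at 0.081, AK158329 at -0.060 and Adamts20 at 0.058. With normexp the sign of AK179277, Nfam1, AK147562 and Ppp1r16a turned, and Nptxr and Adamts20 no longer passed. Normexp squeezed the signals of some of the 22 arrays, as given below, so these changes cannot decide how stable the genes are. With no-lymphoma arrays 3, 4 and 9 turned, Tef (0.071, adjusted p = 0.0541, limma), Nptxr, Adamts20 and AK079821 did not pass.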

How the data were processed

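Per the file headers, the deposited scanner files hold spot intensity of both channels from Feature Extraction 9.1.3.1 (9.1 in the submitters' processing notes; protocol CGH-v4_91), with processed signals already background-subtracted and dye-normalised. The deposited value table holds log10 ratios, red over green, per the file headers, and equals the scanner log ratios. Here log2 ratios were taken from processed intensity, spots with outlier flags left out, spots of a probe averaged, and each array centred on its autosomal median, with no loess or quantile step. Segments came from optimal partitioning (penalty 3 × log(n) × noise variance; steps of 0.25 or more between segments of at least 20 probes). Gene names were updated through a RefSeq table of GRCm38.p6, from which no coordinate was taken: 12155 of 25705 names matched a symbol, 3590 a synonym. limma 3.58.1 (R 4.3.3) was fitted to gene values of all 22 arrays, and other values were tested with exact sign-flip or pairing permutation tests over mice. Scripts used Python 3.11.15, numpy 2.4.6 and scipy 1.17.1 and were tested on simulated data. With 1 array per mouse, precision is limited by how many arrays there are. The named genes are members of the gene lists, the genes next to steps, the 10 with the smallest p in each focal test and the 2 highest and 2 lowest in lymphoma. The members, lists and tests were chosen with earlier results of these data known. Alternatives were another background correction, other centrings, dim spots left out, medians, scan batch as a block, 3 arrays left out or turned, other segmentation limits, other gene filters and lymphoma mice left out. Normexp was run on median spot signals, since 18 files hold no mean signal. The 6 probes of 1 gene are not reported here.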

Additional observations from a re-analysis of the deposited data

Results flagged for a closer look

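In 11 measures of the 8 lymphoma arrays, 8 values lay so far from the nearest other array that the gap, relative to the whole range, exceeded Dixon's 95% limit for 8 samples. Chance gives such a value in about 1 in 20 groups, and the measures are not independent, since most are read from the same probes. Lymphoma mouse 8 stood apart as the lowest in 6 of them. Its region mean was 0.20, its region median 0.21, its bins were at 0.14 (65 to 75 Mb), 0.16 (85 to 95 Mb) and 0.22 (95 Mb to the end), and its converted share of trisomic cells was 30.4%. The loss at the chromosome 12 end of the same mouse was as deep as in the other lymphomas, at -0.92. Lymphoma mouse 1 stood apart at the chromosome 12 end, with a log2 ratio of -0.42 and a converted share of 50.2%, while its chromosome 15 gain lay among those of the other mice. These values are given without an explanation, and their cause was not tested.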

How the results depend on the processing

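The region level, and the mean share of trisomic cells where it was recomputed, moved by less than the spread between mice: the lymphoma mean ran from 0.52 to 0.56 and the difference between groups from 0.39 to 0.49. The share was recomputed under normexp, 2 other centrings, without dim spots and with medians, and ran from 88.6% to 95.7%. Leaving out each lymphoma mouse in turn, an alternative chosen after seeing the data, changed no call: the 4 bins ran from -0.065 to -0.049, from 0.032 to 0.046, from -0.046 to -0.034 and from 0.023 to 0.027, the region minus the proximal part from 0.16 to 0.22, and the difference of shares from -4.26 to 12.1 points. Also added later were the region minus the proximal part without lymphoma mice 2 and 7 (0.12, exact sign-flip p = 0.0625) and the second bin less the no-lymphoma mean (0.029, adjusted exact p = 0.0547), which no longer passed.

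Normexp was run on median spot signals. The first and second bins, at -0.020 and 0.021, no longer passed (adjusted exact p = 0.188 and 0.146), the difference of shares rose to 22.4 points and passed (exact p = 0.0234), and the correlation with the chromosome 12 end turned from 0.086 to -0.85 (exact p = 0.022). The correction squeezed the signals of some arrays: in lymphoma mouse 8 the 95th over the 5th percentile of green signal fell from 4.51 to 1.17, the share of trisomic cells from 30.4% to 6.71% and the share with chromosome 12 loss from 94.5% to 9.67%. That green ratio also fell in no-lymphoma mice 8 (3.67 to 1.09), 10 (3.60 to 1.14) and 12 (3.59 to 1.14). In other arrays, such as lymphoma mouse 2 (2.67 to 3.56), it rose. The chromosome X median of no-lymphoma mouse 10 went from 0.93 to 0.047. The normexp results include these squeezed arrays, so they cannot decide how stable a gene or bin is. Under normexp the deviation of AK179277 was -0.0015, of Nfam1 -0.073, of AK147562 -0.0077 and of Ppp1r16a -0.074.

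Steps inside the region numbered 16, or 11 with a penalty factor of 6 in place of 3, 19 with normexp, and 69 when counted from 0.15. Genes higher or lower in lymphoma numbered 1192, 310 of them in the region. They were 866 higher and 326 lower, against 972 and 99 when centred on the mode and 553 and 84, or 637 in all, with normexp. They were 426 with scan batch as a block (194 in the region), and 541 in the region without the probe minimum. Focal genes between the groups numbered 2 over all genes, 9 with 3 arrays turned, 0 with scan batch as a block (limma; 547 at an unadjusted p under 0.05), 5 with those arrays left out and 4 without the probe minimum. Focal genes against 0 numbered 5 over all genes, and 19, 14, 8, 11, 264 and 15 with normexp, arrays turned, scan batch as a block, arrays left out, no probe minimum and a local level within 3 Mb. In the region they were 0, 4 with normexp and 12 without the probe minimum. The cause of these moves was not tested.

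No paired analysis was possible because the labels give no replicate numbers and each mouse has 1 array. Spots not well above background were at most 2.22% of those of the region on any array, and leaving dim spots out changed no call of the tests over mice.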

Other observations

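Arrays differed in the share of probes of the region that lay more than 0.5 below their median. It was 7.67% in lymphoma mouse 6, 9.47% in no-lymphoma mouse 7, 13.2% in no-lymphoma mouse 14 and 19.6% in no-lymphoma mouse 9, and in these arrays the mean over probes was below the median. In lymphoma mouse 3, with 8.73%, the mean was above the median. The other 6 lymphoma arrays had 0.56% to 3.77%, and the noisy no-lymphoma arrays 3 and 4 had 20.4% and 17.4%. The arrays of 2 no-lymphoma mice without a clear gain of distal chromosome 15 had a chromosome 12 end away from 0: no-lymphoma mouse 2 at -0.46, beside a chromosome X median of -0.41, and no-lymphoma mouse 1 at 0.48, beside a region mean of -0.067.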
